A study of Mus musculus with 3 samples.

Results

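The genes described here are the signaling chains of the B-cell receptor, the kinases, adaptors and enzymes that carry its signal, the proteins that restrain it, and surface proteins of B cells. A list of 34 gene names was matched to the gene names of the array, and a probe was kept when 1 or more samples had it well above background. All 34 genes were found and kept, by 45 probes, out of 22851 gene names with such a probe and 34797 gene names on the array. All 45 probes were well above background in all 3 samples, and no spot of them was saturated.

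Spleen RNA from islet recipients was measured on 3 one-color arrays, with 1 array per day and no replicates. All recipients were C57BL/6J mice by the labels, and by the study's methods they were male and made diabetic with streptozotocin. They received 25 syngeneic islets in the spleen, and the methods add 100 islets beneath the kidney capsule for every sample, which the sample characteristics state only for Sample 3. Spleens were taken immediately after transplantation on day 0 (Sample 1), on day 2 (Sample 2), and on day 139 from mice whose graft-bearing kidney had been removed on day 100 (Sample 3). How many mice contributed RNA to an array is not given in the sources used here. Day, age of the mouse, graft and nephrectomy differ together between Sample 3 and the earlier samples and cannot be told apart. No spleen without islets was analysed here.

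When antigen binds the B-cell receptor, Src-family kinases phosphorylate the tails of its signaling chains, which recruit the kinase Syk. Syk and Btk then act through adaptor proteins on a phospholipase and on PI3-kinase, and calcium, protein kinase C and Ras signals follow. Inhibitory receptors such as CD22 bring phosphatases to the same site and dampen the signal. The white pulp of the spleen holds many B cells, while several of these proteins also serve macrophages, neutrophils, T cells and platelets.

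A signal below is the background-subtracted brightness of a probe after quantile normalization, which gives all 3 arrays the same distribution. The authors' deposited values matched these signals within 0.0029 (log2) for the 34 genes. Each gene is represented by its brightest probe. A ratio is the signal of one day divided by that of another, and its error is that which the scanner software estimates for the spots. The median error of a log2 ratio of these genes was 0.20, and it leaves out labeling and differences between mice. For almost all of these genes it was close to a fixed share of the signal. Before normalization on day 0 it was 503 of 5030 for Cd79a and 1846 of 18460 for Cd79b. Statements by this error therefore act much like a fixed limit on the ratio. Of all gene probes, 54.4%, 53.8% and 50.4% were well above background on days 0, 2 and 139. On the 3 arrays such probes began at normalized signals between 12.9 and 18.2, and the signals of the 34 genes ran from 52.7 to 40170. With 1 array per day no test of the days was possible, and in whole spleen a larger number of B cells and more RNA per B cell cannot be told apart.

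The probes are oligonucleotides of 60 bases designed against a transcript. The first 30 bases of 6 of them are shown because these genes mark the extremes of the set. Cd79a and Cd79b are the receptor's own chains, and Blk had the highest ratios, though not with normexp background correction. Lyn, Cd24a and Cd53 were the only genes of the 34 with a lower signal on day 139 than on day 0. For Lyn and Cd53 this direction turned under spike-in scaling. Positions of the whole probe are on mm9, and a probe whose span exceeds 60 bases crosses an intron.
Cd79a (chr7:25686823-25686882, plus strand): cctcctcccagatctgtcatggccacttaa
Cd79b (chr11:106172780-106172839, minus strand): agagacttgttggaatctgcaaatggactc
Blk (chr14:63997333-63998470, minus strand): catggccagaggatgcttgctggattttct
Lyn (chr4:3718682-3718741, plus strand): ctgcattgtctactttatttcatggaaagg
Cd53 (chr3:106565046-106566140, minus strand): cagatgttcagggttgctataataaggcaa
Cd24a (chr10:43303706-43303765, plus strand): cttggttctaccgtaagtttttccaatttc
Of the bases of these probes, 35.0% were G or C for Lyn and Cd24a and 51.7% for Blk, with the other 3 in between.

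Most of these genes had their highest signal on day 139. This held for 31 of the 34 genes, against 34.9% of the 22851 gene names with a detected probe, which are called all genes from here on. The median log2 ratio of the 34 genes was 0.69 over day 0 and 0.71 over day 2, while the median over all genes was -0.003 and -0.03. Samples 1 and 2 differed little for the set, with a median log2 ratio of 0.02 for day 2 over day 0, equal to the 0.02 of all genes. The comparisons over day 0 and over day 2 share the day 139 array and are not independent of each other.

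By the study's ratio limit of 1.5, 19 of the 34 genes (55.9%) were higher on day 139 than on day 0, where 13.6% of all genes were. Over day 2 the count was 22 (64.7%), where 12.9% of all genes passed. None of the 34 had a ratio of 0.66 or less, against 13.7% of all genes over day 0 and 13.5% over day 2. The ratio reached 1.5 over both earlier days for 18 genes, over only 1 of them for 5 genes and over neither for 11.
The study also required a Z-score of at least 2. The study does not give the formula of its score, so the score and calls here can differ from its own. Here a log2 ratio was set against the spread (SD) among 1000 probes of similar mean signal. The score thus compares a probe with other probes and not with other mice. Both criteria were passed over day 0 by 7 genes (20.6%), namely Cd79a, Cd79b, Blk, Rasgrp3, Ralgps2, Cd22 and Cd72, where 3.13% of all genes were called. Over day 2 they were passed by 4 genes (11.8%), namely Cd79b, Blk, Cd22 and Ms4a1, against 3.06% of all genes. Cd79b, Blk and Cd22 were called in both. These calls are by the brightest probe of each gene. Over day 0 further probes of Prkcb, Cd37 and Siglecg also passed both criteria, with Z-scores of 2.51, 2.37 and 2.05. The second probe of Cd72 did not, with a Z-score of 1.97. In the downward direction 0 of the 34 were called, against 2.37% of all genes over day 0 and 1.8% over day 2. The spread used for the Z-score moved these counts. With 1 SD over all probes, 1 gene passed in each comparison, and with a scaled median absolute deviation 16 passed over day 0 and 15 over day 2. The share of all genes passing with these spreads was not computed, so these counts show the effect of the setting alone.

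**Figure D1:**
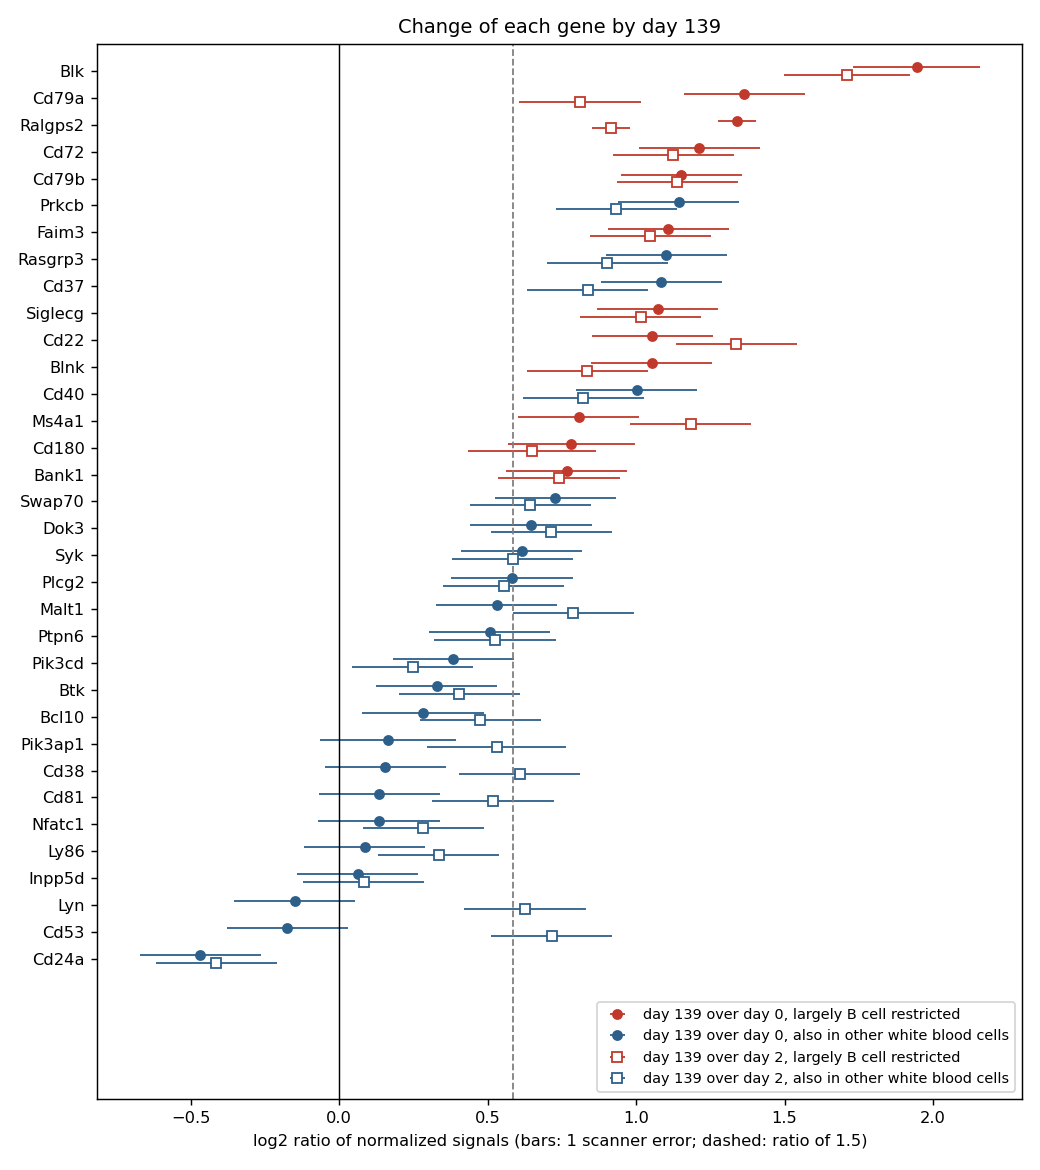
Log2 ratio of day 139 over day 0 (filled circles) and over day 2 (open squares) for each of the 34 genes, with 1 scanner error as the bar and a dashed line at a ratio of 1.5. Genes taken as largely restricted to B cells in blood-forming tissue are red and genes that other white blood cells also use are blue. The red points lie between 0.65 (Cd180 over day 2) and 1.94 (Blk over day 0), and the blue points between -0.47 (Cd24a over day 0) and 1.14 (Prkcb over day 0), with Lyn and Cd53 below 0 over day 0 in this scaling but not under spike-in scaling.

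Both signaling chains of the receptor were higher on day 139. Cd79a, which encodes the Igα chain, had signals of 4835 on day 0, 7099 on day 2 and 12454 on day 139. Its signal was already higher on day 2 than on day 0 by 0.55 on the log2 scale, the largest such difference of the set, and the day 139 signal was the highest of the 3. Cd79b, which encodes the Igβ chain, gave 18080, 18240 and 40170. The first 2 samples lay together for Cd79b, with a log2 ratio of 0.01, and the day 139 sample was 2.22-fold above day 0 and 2.20-fold above day 2. Over day 0 the log2 ratios of the 2 chains, 1.37 ± 0.20 for Cd79a and 1.15 ± 0.20 for Cd79b (scanner error), were within their errors of each other.

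Among the receptor-proximal kinases, the 4 genes differed from each other. Blk, a Src-family kinase found mainly in B cells, had signals of 79.6, 93.7 and 306 on days 0, 2 and 139. Its log2 ratio of 1.94 ± 0.21 over day 0 and 1.71 ± 0.21 over day 2 was the highest of the 34 genes in both comparisons, with Z-scores of 2.89 and 2.40. Lyn, the Src-family kinase that B cells share with myeloid cells, gave 458, 268 and 413. The day 2 sample was the low one for Lyn, and day 139 lay between the earlier days.
Syk, the kinase recruited to the phosphorylated chains and used by many white blood cells, gave 6144, 6273 and 9407, a log2 ratio of 0.61 over day 0. Btk, the Tec-family kinase that activates the phospholipase, gave 2674, 2537 and 3357, and its log2 ratios of 0.33 over day 0 and 0.40 over day 2 stayed below the ratio limit. Blk and Lyn belong to the same kinase family, and their log2 ratios over day 0 were 1.94 ± 0.21 and -0.15 ± 0.20, against 2.32 for Blk and 0.24 for Lyn with spike-in scaling.

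Among the adaptors and PI3-kinase genes, Blnk had the highest ratio over day 0 and Pik3ap1 the lowest. Blnk, the adaptor that links Syk to the phospholipase, had signals of 8656, 10064 and 17953, and day 139 stood apart with a log2 ratio of 1.05 over day 0. Bank1, a B-cell scaffold protein, gave 1512, 1539 and 2571, with both earlier days alike and day 139 higher by 0.77. Pik3cd, the catalytic PI3-kinase subunit of white blood cells, gave 3357, 3693 and 4383, a log2 ratio of 0.38 ± 0.20 over day 0. Pik3ap1, the adaptor that draws PI3-kinase to the membrane, gave 67.9, 52.7 and 76.1, and its day 139 signal was within the error of day 0 (0.17 ± 0.23).

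The downstream effectors were all higher on day 139, by between 0.13 for Nfatc1 and 1.34 for Ralgps2 over day 0. Ralgps2, an activator of the Ral GTPases, had signals of 501, 673 and 1269. It was the only one of the 34 genes read by 10 spots per array, whose SD on the log2 scale was 0.04, 0.09 and 0.04 on days 0, 2 and 139, so the differences between its 3 values exceeded the spread of the spots.
Prkcb, the protein kinase C isoform that leads from the receptor to NF-κB, gave 5280, 6109 and 11669, with day 139 at 2.21 times day 0. Rasgrp3, which activates Ras in response to diacylglycerol, gave 765, 878 and 1642, a ratio of 2.15 over day 0 with a Z-score of 2.02. Plcg2, the phospholipase itself, gave 7232, 7370 and 10824. Its log2 ratios of 0.58 and 0.55 lay just under the ratio limit.
Swap70, a protein that binds phosphoinositides and actin, gave 1864, 1977 and 3087, with a log2 ratio of 0.73 over day 0. Malt1 and Bcl10 are partners in the complex that activates NF-κB. Malt1 gave 1272, 1064 and 1838, with log2 ratios of 0.53 over day 0 and 0.79 over day 2. Bcl10 gave 795, 695 and 967, with log2 ratios of 0.28 and 0.47. For both of them day 2 was the lowest sample. Nfatc1, the calcium-controlled transcription factor, gave 1131, 1021 and 1241, and its ratio over day 0 was within the scanner error. A second, dimmer probe of Nfatc1 gave log2 ratios of 0.39 over day 0 and 0.48 over day 2, beyond the scanner error of 0.20.

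**Figure D2:**
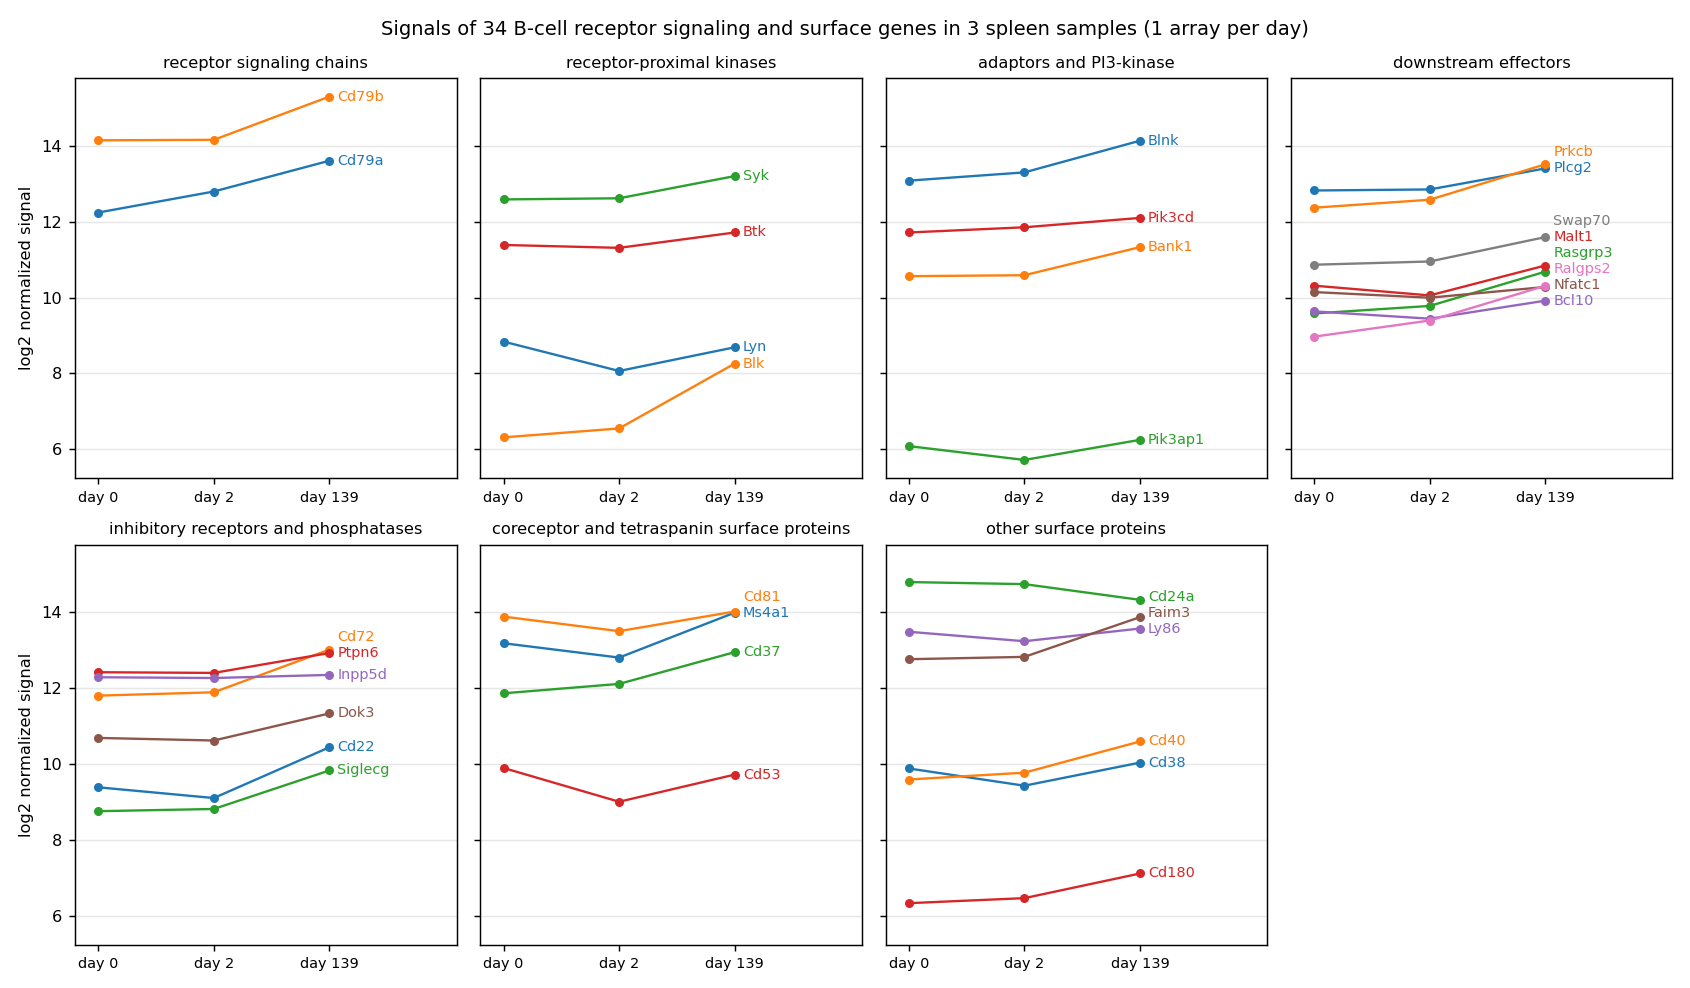
Log2 normalized signal of the 34 genes on days 0, 2 and 139, in 7 panels by step of the pathway. Each point is 1 array, the days are spaced evenly and not to scale, and the lines join the values of 1 gene. In 31 genes the day 139 point is the highest, and the exceptions are Lyn, Cd53 and Cd24a, of which Lyn and Cd53 are highest on day 139 under spike-in scaling.

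The inhibitory receptors, like the signaling chains, were higher on day 139, and the phosphatases they recruit had smaller ratios. Cd22, a sialic acid-binding receptor that dampens B-cell receptor signals, had signals of 672, 552 and 1395. Day 2 was the low sample and day 139 the high one, at 2.08 times day 0 and 2.53 times day 2, with Z-scores of 2.05 and 2.29. Siglecg, another inhibitory sialic acid-binding receptor, gave 434, 452 and 914. Cd72, an inhibitory lectin of B cells, gave 3584, 3808 and 8308. For both the earlier days were alike and day 139 was more than 2-fold higher.
Ptpn6, which encodes the phosphatase SHP-1 of most white blood cells, gave 5495, 5426 and 7806, with log2 ratios of 0.51 over day 0 and 0.52 over day 2. Inpp5d, which encodes the lipid phosphatase SHIP1, gave 5014, 4944 and 5234. Its 3 signals spanned 0.08 on the log2 scale, the smallest span of the 34 genes and less than the scanner error. Dok3, an inhibitory adaptor, gave 1655, 1579 and 2590, a log2 ratio of 0.65 over day 0.

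Of the genes for the transmembrane proteins CD20, CD81, CD37 and CD53, those for CD20 and CD37 had ratios past 1.5 over day 0. Ms4a1, which encodes CD20, had signals of 9330, 7180 and 16320, low on day 2 and highest on day 139, and its Z-score of 2.10 passed over day 2 while that of 1.35 over day 0 did not. Cd37, a tetraspanin enriched in B cells, gave 3738, 4440 and 7929, with day 139 at 2.12 times day 0. Cd81, a widely expressed tetraspanin that belongs to the B-cell coreceptor complex, gave 15173, 11631 and 16653. Its log2 ratio over day 0 was 0.13, within the scanner error, and 0.52 over day 2. Cd53, a tetraspanin of all white blood cells, gave 956, 516 and 847, with day 2 the lowest and a log2 ratio of -0.89 over day 0, and day 139 within the scanner error of day 0.

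Of the other surface proteins, Faim3, Cd40 and Cd180 had ratios past 1.5 over both earlier days, which for Cd180 did not hold under normexp background correction (log2 ratios of 0.42 and 0.33). Faim3, also named Fcmr and encoding the receptor for the constant part of IgM, had signals of 6969, 7273 and 15029, with both earlier days alike and day 139 at 2.16 times day 0. Cd40, through which T cells stimulate B cells, gave 774, 877 and 1551. Cd38, an enzyme on the cell surface that consumes NAD, gave 947, 692 and 1055, with its low value on day 2.
Cd180 and Ly86 encode the 2 parts of the RP105 and MD-1 complex, a Toll-like receptor relative on B cells and macrophages. They differed from each other, at 80.9, 88.7 and 139 for Cd180, a log2 ratio of 0.78 ± 0.21 over day 0, and 11503, 9678 and 12204 for Ly86, a log2 ratio of 0.09 ± 0.20. Cd24a, a surface glycoprotein of early B cells that red cell precursors also carry, gave 28518, 27461 and 20607. It had the lowest log2 ratios of the 34 genes, -0.47 over day 0 and -0.41 over day 2, which spike-in scaling turned into -0.06 and 0.03. Under the same scaling the ratios over day 0 of Lyn and Cd53, which were -0.15 and -0.17, became 0.24 and 0.22. Spike-in scaling moved the median log2 ratio of all genes over day 0 from -0.003 to 0.38, and relative to that median all 3 genes remained below it.

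Further probes of the same genes were compared with the brightest one. Of the 34 genes, 10 had more than 1 probe, with 11 further probes in all. Over day 0 the log2 ratios of a further probe and of the brightest probe differed by a median of 0.14 and at most by 0.33, for Siglecg (1.07 and 1.40). Over day 2 the median difference was 0.16 and the largest 0.30, for Pik3cd. No pair of probes differed in sign in these 2 comparisons. The 2 probes of Cd79a, with day 0 signals of 4835 and 284, gave log2 ratios of 1.37 and 1.32.
For day 2 over day 0 the probes of Bank1, Pik3cd and Syk disagreed in sign, in 4 of 11 pairs, and all of these values lay within 0.25 of 0. A second probe of Prkcb gave 0.79 there, with signals of 1501 on day 0, 2604 on day 2 and 4112 on day 139, where the brightest gave 0.21. Whether the further probes read other transcript forms was not tested.

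**Figure D3:**
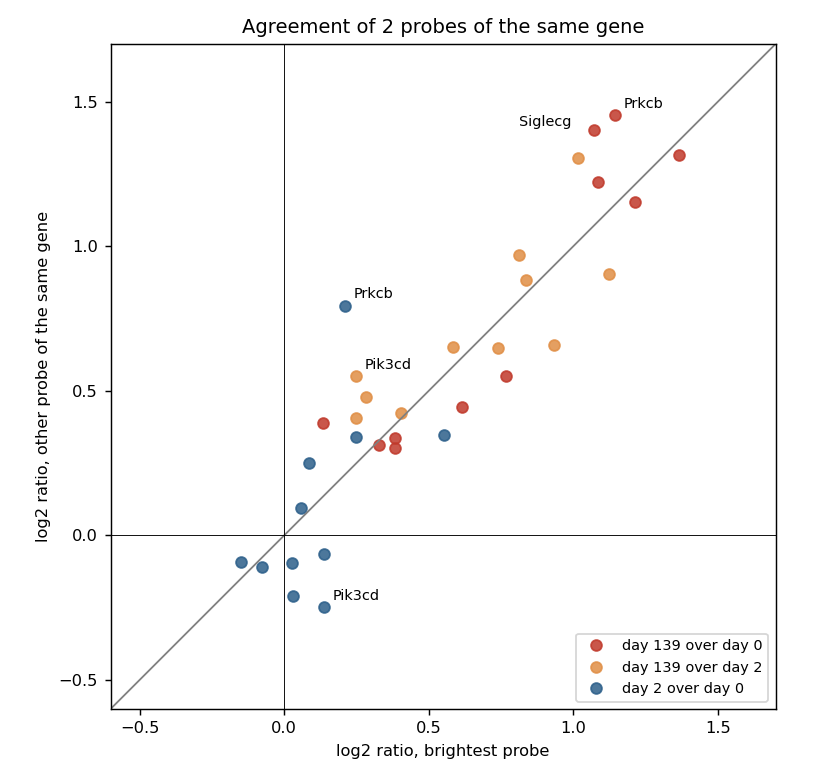
Log2 ratio of the brightest probe (horizontal) and of a further probe of the same gene (vertical) for 10 genes in 3 comparisons, with the line of equality. Points more than 0.3 apart are named. All points of day 139 over day 0 (red) and over day 2 (orange) are positive on both axes, and 4 of the 11 points of day 2 over day 0 (blue) have opposite signs.

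Between day 0 and day 2 few genes of the set passed the ratio limits. The ratio of day 2 over day 0 reached 1.5 in 0 of the 34 genes, against 9.96% of all genes, and 2 genes (5.88%), Cd53 and Lyn, were at or below 0.66, against 9.9% of all genes. With the Z-score added, 0 genes of the set were called higher and 0 lower, where 2.13% and 2.8% of all genes were. These counts are by the brightest probe of each gene. The second probe of Prkcb passed both upward criteria, with a ratio of 1.73 and a Z-score of 2.06. Cd53 and Lyn had Z-scores of -1.87 and -1.53, and 2 genes were called lower when the spread was a scaled median absolute deviation. The share of all genes called with that spread was not computed.
The signals lay beyond 2 scanner errors for 5 genes, higher for Cd79a and Ralgps2 and lower for Cd53, Lyn and Cd38. The 5 lowest log2 ratios were those of Cd53 (-0.89), Lyn (-0.77), Cd38 (-0.45), Cd81 (-0.38) and Ms4a1 (-0.38), and the 5 highest those of Cd79a (0.55), Ralgps2 (0.43), Cd37 (0.25), Blk (0.24) and Blnk (0.22). Beside these values, 8 of 16 neutrophil markers were at or below a ratio of 0.66 on day 2, while 7 were higher than on day 0. Their summed signal was 267179 on day 0 and 91225 on day 2, most of it from S100a8 and S100a9, and without these it was 66226 and 28263. Neutrophils also express Lyn and Cd53, and the part of these cells in the 2 ratios was not tested.

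The genes were divided by where they are used, from general knowledge and with earlier results of these data known. The first group held 12 genes taken as largely restricted to B cells in blood-forming tissue (Cd79a, Cd79b, Ms4a1, Cd22, Blk, Cd72, Blnk, Bank1, Faim3, Siglecg, Cd180 and Ralgps2), and the second the 22 that other white blood cells also use. Cd180 was placed in the first group although macrophages carry it too. In the first group 12 of 12 had a ratio of at least 1.5 over day 0 and 12 of 12 over day 2, and with normexp background correction 11 of 12 in each, Cd180 being the exception. Without Cd180, a choice made after seeing the data, the count was 11 of 11 in both comparisons. In the second group it was 7 of 22 and 10 of 22. All of these counts use the brightest probe of each gene. Within the first group, the second probe of Bank1 had a ratio of 1.47 over day 0, below the limit, and of 1.57 over day 2. The second probes of Cd79a, Cd72 and Siglecg were above the limit in both comparisons. The median log2 ratio over day 0 was 1.09 in the first group, with quartiles of 0.99 and 1.24, and 0.36 in the second, with quartiles of 0.13 and 0.64.
Over day 2 the medians were 1.03 and 0.57. The summed signal of the first group was 54733 on day 0, 57063 on day 2 and 116828 on day 139, and that of the second 104814, 99181 and 125379. Prkcb, Rasgrp3, Cd37 and Cd40 of the second group had log2 ratios over day 0 of 1.00 to 1.14, which lay within the range of the first. The lowest of the first group over day 0 was Bank1, at 0.77. The difference between the groups could not be tested, as the genes of 1 array are not replicates.

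The wider pathway was read from a further list of 70 genes written from general knowledge, of which 68 were on the array and 65 had a probe well above background. Their median log2 ratio was 0.16 over day 0 and 0.24 over day 2. Over day 0, 10 of the 65 (15.4%) reached a ratio of 1.5, near the 13.6% of all genes. At 0.66 or lower were 3 (4.62%, against 13.7% of all genes). Both criteria were passed by 0 in either direction, against 3.13% of all genes upward and 2.37% downward. Over day 2, 14 (21.5%, against 12.9% of all genes) reached 1.5, and 4 (6.15%, against 13.5%) were at 0.66 or lower. Here too 0 passed both criteria, against 3.06% of all genes upward and 1.8% downward. Cd5 and Tec were among the highest over day 0. Cd5, an inhibitory receptor of T cells and some B cells, gave 1564, 2041 and 3222, a log2 ratio of 1.04.
Tec, a kinase related to Btk, gave 221, 214 and 450, a log2 ratio of 1.02. The 3 lowest were Dok2, an inhibitory adaptor of T cells and myeloid cells, at 4099, 4275 and 2001, a log2 ratio of -1.03, then Stim1, a calcium sensor, at -0.63, and Gab2, an adaptor. Gab2 was not well above background on day 139, where its signal was 13.4, and no size is given for it. The phosphatase subunit Ppp3r1 was the only gene of the list called between days 0 and 2, lower on day 2 at 1361 from 2443 (Z-score -2.11). Of all genes, 2.13% were called higher and 2.8% lower in that comparison.

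Markers of several other cell types differed between the same samples. Of 12 B cell markers outside the set, 12 were higher on day 139 than on day 0, with a median log2 ratio of 0.85, and 12 were higher than on day 2, with a median of 1.00. That list holds Spib, which the study singled out on these samples, and Cr2, which the wider pathway list also holds. Within it Fcer2a, the low-affinity IgE receptor of follicular B cells, went from 339 to 631 and 1080, and Cr2, the complement receptor of the coreceptor complex, from 13762 to 12898 and 16161, the smallest ratio of the list.
The T cell markers had a median log2 ratio of 0.75 over day 0, with 19 of 20 higher and Cd5 counted here too, and the plasma cell markers of 1.25, with 10 of 11 higher. The erythroid markers had a median of -0.55, with 15 of 18 lower. Their summed signal was 1047120 on day 0 and 967037 on day 139, and without Hba-a1 and Hbb-b1, whose normalized signals were the same on both days, it was 282730 and 202647. Quantile normalization gives the same signal to probes of the same rank, so these equal signals do not show whether the globin RNA changed. The erythroid values stand beside those of Cd24a, which red cell precursors carry, and their part in it was not tested.
The macrophage and monocyte markers had a median of -0.04 over day 0 and the dendritic cell markers of 0.10, near the value of all genes. Neutrophil markers went both ways over day 0, with 8 of 16 higher and 8 lower, a median of -0.64 and quartiles of -2.38 and 0.40. Natural killer cell markers had a median of -0.24, with 7 of 10 lower. All markers of these 8 lists that were on the array were well above background in all 3 samples. The part of the mix of cells in the values of the 34 genes was not tested.

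**Figure D4:**
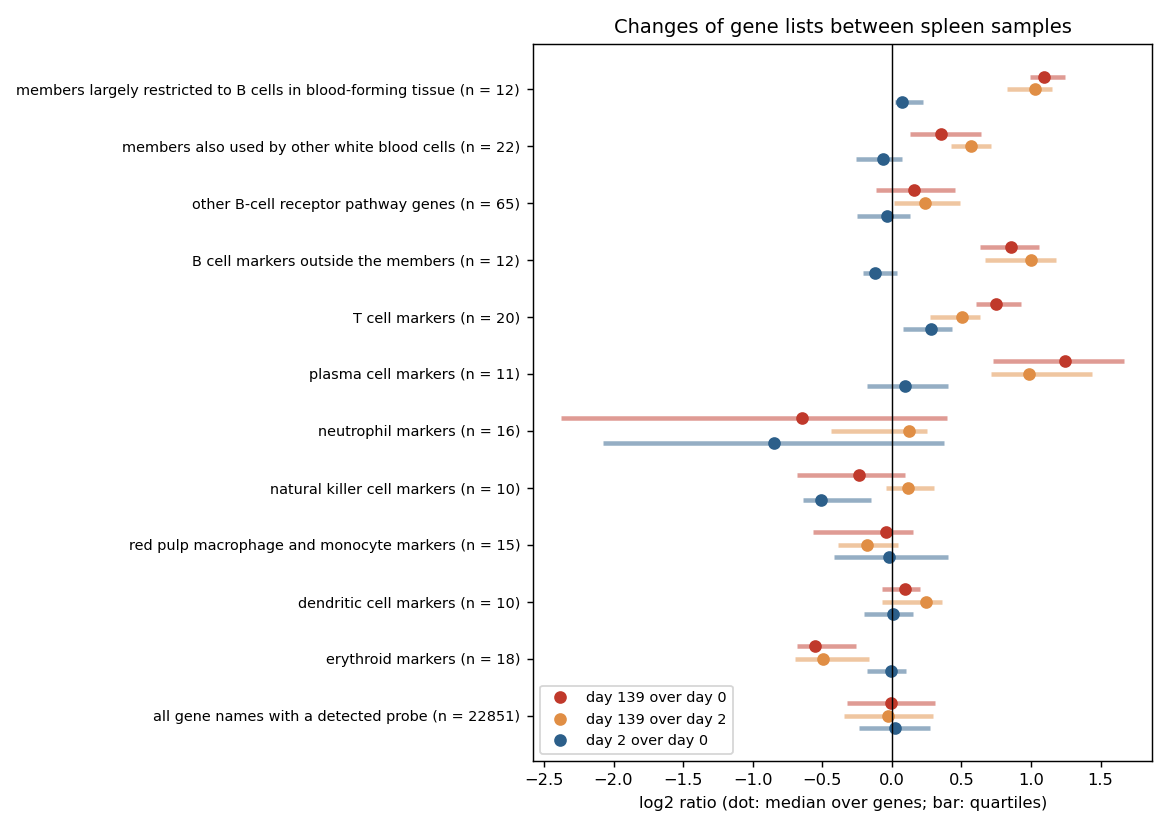
Median log2 ratio (dots) and quartiles (bars) of the genes in 12 lists for day 139 over day 0 (red), day 139 over day 2 (orange) and day 2 over day 0 (blue), with the number of genes in each list. The 12 genes of the set taken as largely restricted to B cells in blood-forming tissue lie at 1.09, 1.03 and 0.07, against -0.003, -0.03 and 0.02 for all genes.

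Sequence upstream of the transcription start was available for 26 of the 34 genes, in 33 windows, from a RefSeq table on GRCm38.p6. Windows of 250 bases before the start were searched on both strands for short motifs of factors active in B cells. The letters were CCCNNGGG for the core of the EBF1 site, ATGCAAAT for the octamer of the Oct factors, GAGGAA for the ETS site of the PU.1 type, and CAGGTG for an E-box. Matches of different motifs can share bases, and a match is a description of the sequence only.
The E-box was in 13 of the 33 windows (39.4%), against 17.2% of all 32851 windows in the table. The ETS letters were in 11 (33.3%) against 23.3%, the EBF1 core in 4 (12.1%) against 11.8%, and the octamer in 2 (6.06%) against 1.6%. Of the 12 windows of genes taken as largely restricted to B cells in blood-forming tissue, 5 held the E-box, 4 the ETS letters, 2 the EBF1 core and 1 the octamer. Windows of 1 gene can overlap and are not independent of each other. Expression was measured here and the binding of factors was not.

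Cd79a, Cd22 and Cd72 belong to the receptor and its inhibitors, and their brightest probes passed both criteria over day 0. Their windows are shown. They are written 5′ to 3′ on the strand of the gene, and capitals mark the letters of the motifs on either strand.
Cd79a (chr7:24897247-24897496, plus strand): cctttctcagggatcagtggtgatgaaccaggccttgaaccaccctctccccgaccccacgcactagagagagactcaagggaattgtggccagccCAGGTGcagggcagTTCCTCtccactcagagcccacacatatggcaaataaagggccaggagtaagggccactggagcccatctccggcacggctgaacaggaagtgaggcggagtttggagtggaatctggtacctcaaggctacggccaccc
Cd22 (chr7:30879029-30879278, minus strand): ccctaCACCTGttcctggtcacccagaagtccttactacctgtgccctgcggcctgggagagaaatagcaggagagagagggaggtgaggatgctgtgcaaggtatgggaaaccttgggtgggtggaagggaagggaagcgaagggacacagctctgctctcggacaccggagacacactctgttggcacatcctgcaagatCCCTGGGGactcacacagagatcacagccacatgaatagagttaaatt
Cd72 (chr4:43454627-43454876, minus strand): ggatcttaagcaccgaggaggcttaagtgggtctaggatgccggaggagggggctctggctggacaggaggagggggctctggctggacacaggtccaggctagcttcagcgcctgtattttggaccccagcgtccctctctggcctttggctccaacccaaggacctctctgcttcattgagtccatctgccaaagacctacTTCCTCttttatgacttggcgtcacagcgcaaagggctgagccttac
In Cd79a an E-box lay 149 to 154 bases before the start and the ETS letters 135 to 140 bases before it, on opposite strands. In Cd22 the EBF1 core lay 41 to 48 bases before the start and an E-box 240 to 245 bases before it. In Cd72 the ETS letters lay 42 to 47 bases before the start. Only exact matches to the letters were marked, so an unmarked stretch may still hold a site of these factors.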

How the data were processed

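Per array the authors deposited a scanner file with linear spot intensity values from Feature Extraction (version 10.7.1.1 in the file headers, 9.5.1.1 in the submitters' processing notes), and 1 table of quantile normalized intensity per probe. Control and outlier-flagged spots were left out, spots of a probe were averaged, and 55679 probes were quantile normalized, floored at 1 and log2 transformed. Detection meant the software's flag for a signal well above background on at least 1 array (32108 probes). The deposited table was an alternative and differed by at most 0.0029 (log2) for the 34 genes. The precision is limited by the 3 arrays, and no p-value was computed. Calls needed a ratio of at least 1.5 with a Z-score of at least 2, or at most 0.66 with at most -2.

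The genes, lists and tests were chosen with earlier results of these data known. Named were all 34 genes, the 3 highest and 3 lowest of the other pathway genes over day 0 (1 of these is not reported here), and list members at the extremes. Alternatives were normexp (offset 50, limma 3.58.1, R 4.3.3), 75th percentile and spike-in scaling, other floors, filters, probe rules, ratio limits and Z-score spreads. Python 3.11.15, numpy 2.4.6 and pandas 2.3.3 were used. All 34 names were found in a RefSeq table of GRCm38.p6, Faim3 as a synonym of Fcmr.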

Additional observations from a re-analysis of the deposited data

How the results depend on the processing

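Spike-in scaling, by 7 controls, raised the median log2 ratio of the 34 genes to 1.08 over day 0 and 1.14 over day 2, and the median of all genes to 0.38 and 0.40, so the distance between them stayed at 0.71 and 0.74 against 0.69 and 0.74 with quantile normalization. The genes passing both criteria numbered 14 over day 0 and 14 over day 2 under this scaling, 1 and 1 with 1 SD over all probes, and 16 and 15 with a scaled median absolute deviation. A ratio limit of 2 left 13 genes over day 0 and 7 over day 2. The share of all genes was not computed for these counts, so they show the effect of the setting alone. Under spike-in scaling a ratio of 1.5 was reached by 25 and 32 of the 34 genes over days 0 and 2. Of all genes, 32.1% and 34.7% reached it under that scaling. For day 2 over day 0, 75th percentile scaling put 1 gene at a ratio of 1.5 or more, against 9.66% of all genes. Every other alternative kept the medians within the scanner error and the counts within 1.5 times. Normexp took Cd180 (both comparisons), Syk (over day 0) and Lyn (over day 2) below a ratio of 1.5. It also lowered the log2 ratio of Blk from 1.94 to 1.36 over day 0 and from 1.71 to 1.21 over day 2, so Blk no longer ranked highest. The direction over day 0 held under all settings for 31 of 34 genes (not Cd53, Inpp5d and Lyn), over day 2 for 33 (not Cd24a), and for day 2 over day 0 for 29 (not Bank1, Inpp5d, Pik3cd, Ptpn6 and Syk). Quantile normalization hides differences in total mRNA, and dim probes such as those of Pik3ap1 and Blk are less precise than bright ones. No paired analysis was possible because each day has 1 array.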
